A study of Mus musculus with 4 samples.

Results

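The genes examined are 46 genes of cell division, 26 that act in mitosis and 20 that act in DNA replication, taken by name and with no inhibitors of division among them. They were read on single-colour Affymetrix Mouse Genome 430 2.0 arrays, on which each transcript is measured by a group of short probes called a probe set. Probe sets annotated to 1 of these genes alone were used. Such a probe set with enough signal was found for 45 of the 46 genes (25 mitosis and 20 replication genes), out of 12469 genes tested in all. The remaining gene, Ccnb1 (cyclin B1), had no probe set annotated to it alone in the annotation used and is not analysed here. Across the 4 arrays, 102 probe sets named a member, of which 91 passed the filter on dim signal and 11 were set aside.

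The RNA came from epidermis of mouse embryos at stage E15.5, separated from the dermis of dorsal skin with dispase. There were 2 control arrays, from control littermates whose alleles the labels do not give, and 2 mutant arrays, from embryos of genotype KRT14-Cre Ctnnb1(Ex3)fl/+. In these mutants Cre is driven by the keratin 14 promoter, which is active in basal keratinocytes, and it removes exon 3 from 1 allele of the beta-catenin gene, so that a stabilised beta-catenin is made in those cells and their descendants. Each array was per the labels a separate embryo. Arrays of 1 group correlated at 0.972 (controls) and 0.970 (mutants) in log2 signal across probe sets, and arrays of different groups at 0.813 to 0.815, with probe sets not being independent replicates. Krt5, a basal keratin, was bright, with a signal of 6544 and 6347 in controls and 5445 and 6231 in mutants. Some other keratinocyte markers were dimmer or differed more between the groups, and the marker lists are given further below.

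Cells that divide switch on these genes in waves. Replication genes are transcribed as cells enter S phase, largely through E2F factors, and their products license origins, unwind DNA, synthesise it and supply its building blocks. Mitosis genes follow in G2 and M phase, through complexes that bind CHR elements and CCAAT boxes of their promoters, and their products condense chromosomes, build the spindle, check the attachment of chromosomes and divide the cell. In the embryonic epidermis division takes place chiefly in the basal layer, while suprabasal cells leave the cell cycle as they differentiate.

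Division genes were lower in mutant epidermis, by modest amounts. Of the 45 measured, 26 fell, 1 rose (Rrm2) and 18 did not pass the test, where passing means an adjusted p under 0.05 in limma, a linear model fitted to log2 signal over all probe sets. Among all 12469 genes, 24.5% were called lower and 20.6% higher, 45.1% in either direction. The median log2 fold change of the 45, mutant over control, was -0.45, which is 27.0% less signal, against -0.056 or 3.80% less over all genes. Of the 18 genes that did not pass, 14 had a fitted value below 0, which makes 40 of 45 below 0 with no threshold, against 53.8% of all genes. The fall was at least 2-fold for 3 genes, namely Ttk, Pola1 and Nusap1, where 10.1% of all genes fell as far. In these bulk samples, fewer dividing cells and less transcript per cell cannot be told apart.

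Mitosis and replication genes gave similar counts. Of 25 mitosis genes 14 fell, none rose and 11 did not pass, with a median log2 fold change of -0.44 and a range of -1.86 to 0.069. Of 20 replication genes 12 fell, 1 rose and 7 did not pass, with a median of -0.50 and a range of -1.42 to 0.51. The classes were not tested against each other. Array by array, and relative to the control mean of each gene, the median mitosis gene stood at 105% in control 1, 94.9% in control 2, 72.3% in mutant 1 and 77.9% in mutant 2. The median replication gene stood at 105%, 95.6%, 70.8% and 69.4% on the same arrays. Both mutants lay below both controls for 35 of the 45 genes, against 41.0% of all genes, both lay above for 2 (Mcm7 and Rrm2), against 34.4%, and the groups overlapped for 8. Control 1 was the higher of the 2 controls for 39 of 45 members, against 53.3% of all genes, by a median of 0.14 on the log2 scale. Without it, 9 mitosis and 8 replication genes fell and the share of all genes called lower was 16.8%; without the trend of variance with intensity the values were 8, 9 and 17.2%. The brightness of a member said little about its change (Spearman's rho of control signal with log2 fold change 0.18 across 45 genes, which share the same arrays and scaling).

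**Figure D1:**
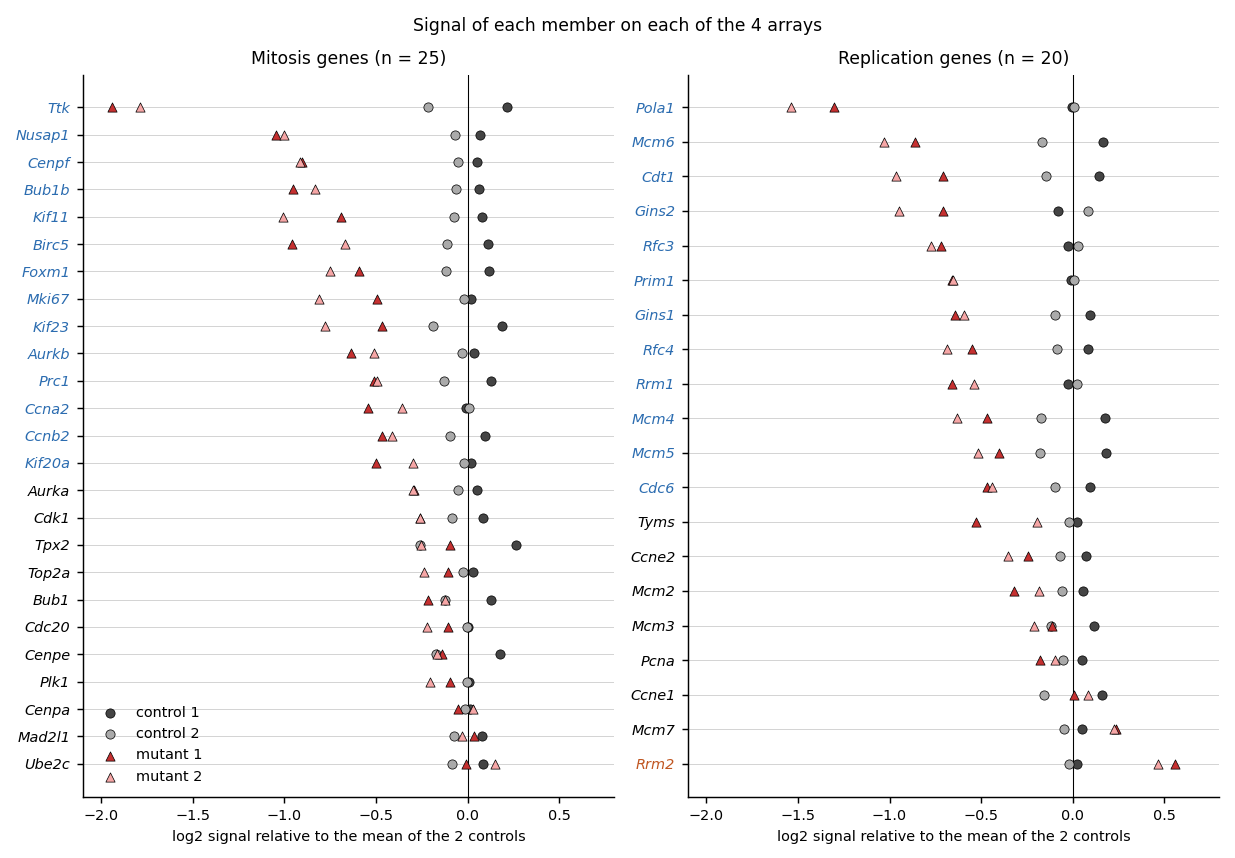
Log2 signal of each of 25 mitosis genes (left) and 20 replication genes (right) on each of the 4 arrays, relative to the mean of the 2 controls for that gene. Circles are control arrays and triangles mutant arrays, and gene names are blue where the gene fell, orange where it rose and black where it did not pass. The triangles lie left of the circles for 35 genes, furthest for Ttk and Pola1, and right of them for Mcm7 and Rrm2.

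The promoters of these genes are shown because the classes carry different motifs in front of them. RefSeq promoter windows (build GRCm38.p6, 250 bases before the transcription start to 50 after it) were found for 37 members, 21 of mitosis and 16 of replication. On both strands, an E2F motif was searched as TTTCCCGC, TTTCGCGC, TTTGCCGC or TTTGGCGC, a CHR as TTTGAA or TTCGAA, and a CCAAT box as CCAAT. A CHR was found for 16 of 21 mitosis members (76.2%) and 3 of 16 replication members (18.8%), against 19.2% of all 32851 promoter windows. An E2F motif was found for 8 of 16 replication members (50.0%) and 1 of 21 mitosis members, against 2.26% of all windows. CCAAT boxes were found for 18 of 21 mitosis and 11 of 16 replication members, against 37.4% of all windows. Members with 2 windows, of which there were 2, were counted once. No E2F match overlapped a CHR match, and 1 window of 39 had an E2F match overlapping a CCAAT box. Each match is a run of letters and not a shown binding site. The windows below are of the mitosis genes Ttk (chr9:83834439-83834738, plus strand), Cenpf (chr1:189688037-189688336, minus strand) and Bub1b (chr2:118597961-118598260, plus strand), of the replication genes Pola1 (chrX:93632106-93632405, minus strand) and Mcm6 (chr1:128359656-128359955, minus strand), all of which fell, and of Rrm2 (chr12:24708004-24708303, plus strand), which rose. Capitals mark every match to the 3 motifs, and each window runs 5′ to 3′ on the strand of its gene.
Ttk: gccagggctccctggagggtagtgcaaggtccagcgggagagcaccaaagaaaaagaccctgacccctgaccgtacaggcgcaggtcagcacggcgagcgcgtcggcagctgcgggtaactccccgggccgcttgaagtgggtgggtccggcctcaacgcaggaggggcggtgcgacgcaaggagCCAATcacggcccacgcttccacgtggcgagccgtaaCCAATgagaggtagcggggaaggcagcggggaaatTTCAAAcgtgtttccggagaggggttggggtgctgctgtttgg
Cenpf: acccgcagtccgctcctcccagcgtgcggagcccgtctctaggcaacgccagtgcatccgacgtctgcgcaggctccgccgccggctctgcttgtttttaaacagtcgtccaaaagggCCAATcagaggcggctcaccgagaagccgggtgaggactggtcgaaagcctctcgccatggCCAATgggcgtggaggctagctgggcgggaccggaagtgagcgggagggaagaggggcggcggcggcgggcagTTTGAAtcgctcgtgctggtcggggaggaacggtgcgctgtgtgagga
Bub1b: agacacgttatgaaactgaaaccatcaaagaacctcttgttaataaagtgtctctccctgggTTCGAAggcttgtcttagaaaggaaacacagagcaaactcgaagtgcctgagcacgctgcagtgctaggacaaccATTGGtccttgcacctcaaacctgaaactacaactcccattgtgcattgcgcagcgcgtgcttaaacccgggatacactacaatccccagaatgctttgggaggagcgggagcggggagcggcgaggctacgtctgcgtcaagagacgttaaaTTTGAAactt
Pola1: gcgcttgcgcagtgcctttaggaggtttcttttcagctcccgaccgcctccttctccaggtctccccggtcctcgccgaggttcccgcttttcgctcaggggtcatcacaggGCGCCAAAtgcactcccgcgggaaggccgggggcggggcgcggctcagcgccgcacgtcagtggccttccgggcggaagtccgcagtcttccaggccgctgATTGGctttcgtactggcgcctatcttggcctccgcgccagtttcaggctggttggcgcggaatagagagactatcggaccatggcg
Mcm6: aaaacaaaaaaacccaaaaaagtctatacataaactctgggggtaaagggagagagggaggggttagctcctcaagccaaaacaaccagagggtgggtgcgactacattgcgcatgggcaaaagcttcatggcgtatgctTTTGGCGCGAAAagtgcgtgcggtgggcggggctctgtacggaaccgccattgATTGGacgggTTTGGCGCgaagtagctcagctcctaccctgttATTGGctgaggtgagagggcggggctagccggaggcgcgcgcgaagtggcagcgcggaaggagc
Rrm2: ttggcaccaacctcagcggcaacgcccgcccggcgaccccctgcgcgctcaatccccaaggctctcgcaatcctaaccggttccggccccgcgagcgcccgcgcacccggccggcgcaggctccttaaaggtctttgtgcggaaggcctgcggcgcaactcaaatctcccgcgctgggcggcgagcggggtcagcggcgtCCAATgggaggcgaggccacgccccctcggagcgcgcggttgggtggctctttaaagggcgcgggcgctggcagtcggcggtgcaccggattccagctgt
The CHR of Ttk, on the opposite strand, began 8 bases into the transcript, after CCAAT boxes 65 and 28 bases before its start. In Cenpf the CHR began at base 3 of the transcript, with CCAAT boxes 132 and 71 bases before the start. Bub1b held a CHR 188 bases before the start and another at base 41 of the transcript. Pola1 had 1 E2F match, 138 bases before its start, and Mcm6 had 3, of which a pair 110 and 106 bases before the start overlap each other. Rrm2 had a CCAAT box 50 bases before its start and no match to the other motifs in this window. Of mitosis members measured, 8 of 16 with a CHR and 2 of 4 without one fell, and of replication members, 6 of 8 with an E2F motif and 3 of 8 without one fell. The other splits gave 1 of 3 replication members with a CHR and 8 of 13 without, 6 of 11 with a CCAAT box and 3 of 5 without, and, for mitosis members, 8 of 17 with a CCAAT box and 2 of 3 without. The single mitosis member with an E2F motif did not pass, and 10 of 19 without one fell. None of these splits was tested.

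Among proliferation markers, Mki67 fell and Top2a did not pass. Mki67, which encodes the nuclear antigen Ki-67 of dividing cells, had a signal of 1494 and 1455 in the controls and 1046 and 839 in the mutants. Both mutants were below both controls, and the log2 fold change was -0.65 ± 0.12 (SE, n = 2 per group; limma adjusted p = 3.58e-03). Without the intensity trend it did not pass. Top2a, the topoisomerase that untangles replicated chromosomes, had 1878 and 1811 in controls and 1713 and 1564 in mutants. Its groups did not overlap either, yet the difference of -0.17 ± 0.09 did not pass (adjusted p = 0.164). A second, fainter probe set of Top2a had 143 and 112 in controls and 99.3 and 75.4 in mutants. It did not pass either, at -0.55 ± 0.20 (limma adjusted p = 0.0657).

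Of the 4 measured cyclins, partners and factors of the G2 to M transition, 3 fell. Foxm1, a transcription factor of G2/M genes, had 255 and 217 in controls and 155 and 139.6 in mutants and fell by 0.67 ± 0.14. Its other 2 probe sets, at -0.20 and -0.34, did not pass, and the call was lost without control 1. Ccna2, cyclin A2, fell by 0.45 ± 0.10 and Ccnb2, cyclin B2, by 0.44 ± 0.10. Neither passed without the intensity trend, nor Ccnb2 without control 1. Cdk1, the kinase these cyclins activate, had 1271 and 1130 in controls and 999 and 1001 in mutants. That difference of -0.26 ± 0.10 did not pass (adjusted p = 0.0637), with no overlap of the groups.

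The spindle checkpoint holds a cell before anaphase until its chromosomes are attached. The 4 members that act in it gave 2 falls, including that of Ttk, the furthest of any member. Ttk, the kinase also called Mps1 that starts the checkpoint signal, had a signal of 644 and 478 in controls and 144 and 161 in mutants. The mutants were 3.64-fold below the controls, a log2 fold change of -1.86 ± 0.16 (adjusted p = 8.33e-05), and the promoter printed above belongs to this gene. Bub1b, or BubR1, an inhibitor of the anaphase-promoting complex, had 440 and 404 in controls and 218 and 236 in mutants and fell by 0.89 ± 0.12 (adjusted p = 7.02e-04). Bub1, a related kinase, had 534 and 449 against 422 and 449, so that the groups overlapped (-0.17 ± 0.12, adjusted p = 0.295). Mad2l1, or Mad2, which binds Cdc20 in the checkpoint, had a mean of 1003 in either group, with a difference of 0.0015 ± 0.097. Among these 4 members, then, both mutants lay below both controls for Ttk and Bub1b. The groups overlapped for Bub1, by a small margin, and for Mad2l1.

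Of 4 mitotic kinase and passenger genes 2 fell, both of the chromosomal passenger complex. Other genes of that complex, measured outside the members, did not pass. Incenp was at -0.36 ± 0.14 (limma adjusted p = 0.0773) and Cdca8 at -0.29 ± 0.12 (limma adjusted p = 0.0906). Birc5, survivin, had 922 and 791 in controls and 439 and 536 in mutants and fell by 0.82 ± 0.13 (adjusted p = 2.09e-03). Aurkb, the kinase of that complex, fell by 0.57 ± 0.11. Aurka, the kinase of centrosomes and spindle poles, had -0.30 ± 0.11 (adjusted p = 0.0625), and Plk1, which acts from mitotic entry to cytokinesis, had -0.15 ± 0.10 (adjusted p = 0.289), neither passing although both mutants were below both controls.

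Kinesins and spindle proteins gave 5 falls among 6 genes. Nusap1, which stabilises spindle microtubules, had 852 and 775 in controls and 393 and 405 in mutants. It was 2.04-fold lower, at -1.03 ± 0.10 (adjusted p = 1.68e-04), and its second, fainter probe set was also lower, at -1.06. Kif11, the motor that pushes spindle poles apart, had 492 and 443 against 289 and 232 and fell by 0.85 ± 0.14 (adjusted p = 2.16e-03). Kif23 and Kif20a, motors of the central spindle, fell by 0.62 ± 0.16 and 0.40 ± 0.12, and Prc1, which bundles its microtubules, by 0.50 ± 0.12. Each of these 3 calls was lost without control 1 and without the intensity trend. That of Kif20a was also lost without control 2 and without mutant 1, that of Kif23 without mutant 2, and that of Prc1 with probe sets of unique match first. Tpx2, which activates Aurora A on the spindle, had -0.18 ± 0.17 on its brightest probe set, with 503 and 350 in controls and 393 and 351 in mutants. Of its other 3 probe sets 1 passed, at -0.74 ± 0.13, and 2 did not, at 0.25 ± 0.31 and 2.32 ± 1.17. These 2 were dim. The first had 22.9 and 24.8 in controls and 30.0 and 26.6 in mutants. The second had 19.9 and 1.20 in controls and 24.5 and 24.4 in mutants. The 2 brighter probe sets were both below 0 and only 1 of them passed, so no direction is given for this gene.

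Of 5 genes of the centromere and of anaphase ubiquitination, 1 fell. Cenpf, a large kinetochore protein, had 686 and 638 in controls and 353 and 351 in mutants, a fall of 0.91 ± 0.10 (adjusted p = 3.12e-04). Cenpa, the histone H3 variant of centromeres, had 724 and 711 against 693 and 732 (-0.010 ± 0.09), and Cenpe, a kinetochore motor, had -0.15 ± 0.14. In both the groups overlapped, and the sign of either value turned when control 1 was left out. Cdc20, the activator of the anaphase-promoting complex, had -0.16 ± 0.09 (adjusted p = 0.183), and the mean over its 3 probe sets was on the other side of 0. That mean includes a dim probe set at 0.98 ± 0.70, while the brighter ones were at -0.16 and -0.028. Ube2c, the ubiquitin-conjugating enzyme of that complex, had 1146 and 1018 in controls and 1073 and 1196 in mutants, a difference of 0.069 ± 0.10, whose sign turned with median centring.

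Replication begins with licensing, and both licensing factors fell. Cdt1, which loads the MCM helicase on origins, had 711 and 581 in controls and 394 and 329 in mutants. Its mutant signal was 43.9% lower, at -0.83 ± 0.14 (adjusted p = 2.49e-03), and a second probe set fell by 0.80. Cdc6, its partner in loading, fell by 0.45 ± 0.14, a call lost without any 1 of the 4 arrays and without the intensity trend.

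The 6 MCM genes encode the subunits of 1 ring-shaped helicase. Of these, 3 fell and 3 did not pass, with 5 of the 6 below 0, and they were not tested against each other. Mcm6 had 1814 and 1442 in controls and 890 and 793 in mutants, a fall of 0.94 ± 0.13 (adjusted p = 8.46e-04). Mcm4 fell by 0.55 ± 0.13 and Mcm5 by 0.46 ± 0.13, calls lost without control 1 and without the intensity trend. The call of Mcm5 was also lost without mutant 2 and by the mean over its probe sets, of which a fainter one was at 0.20. Mcm2, with -0.25 ± 0.10 (adjusted p = 0.0885), and Mcm3, with -0.16 ± 0.11, did not pass. The 5 tested probe sets of Mcm3 lay between -0.47 and -0.14. A fainter one of them was called lower, at -0.47 ± 0.12 (limma adjusted p = 0.0151). Mcm7 had 1679 and 1571 in controls and 1916 and 1901 in mutants. Both mutants were above both controls, at 0.23 ± 0.08 (adjusted p = 0.0624), and its other 3 tested probe sets, between -0.024 and 0.20, did not pass. Control 1 was above control 2 for each of the 6 MCM genes.

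Both members of GINS, a complex that completes the replicative helicase, fell, Gins1 by 0.62 ± 0.13 and Gins2 by 0.83 ± 0.15. Of its other subunits, measured outside the members, Gins3 was lower at -0.80 ± 0.21. Gins4, at 0.043 ± 0.11, did not pass, and its groups overlapped. The call of Gins1 was lost without control 1. For Gins2 the controls had 210.5 and 235 and the mutants 136 and 115, and a second probe set was lower by 1.52 ± 0.16 (adjusted p = 2.63e-04). Of the enzyme that lays down primers, both members fell, and 2 further subunits measured, Pola2 (-0.86) and Prim2 (-0.70), were also lower. Pola1, the catalytic subunit of DNA polymerase alpha, had 448 and 452 in controls and 182 and 155 in mutants. These values are 2.68-fold apart, at -1.42 ± 0.13 (limma adjusted p = 9.68e-05), the furthest fall among the replication members. Prim1, the catalytic primase subunit, had 766 and 775 against 488 and 490, a fall of 0.66 ± 0.09 (adjusted p = 1.11e-03).

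The clamp loader genes among the members fell while the clamp did not pass. Of the other loader subunits measured, Rfc5 was lower at -0.44, and Rfc1 (-0.35) and Rfc2 (-0.12) did not pass. Rfc3, a subunit of the loader, had 315 and 327 in controls and 195 and 188 in mutants. It fell by 0.75 ± 0.12 (limma adjusted p = 1.71e-03), and Rfc4 fell by 0.62 ± 0.12. A second probe set of Rfc4, at -0.45 ± 0.16, did not pass (limma adjusted p = 0.0545). Pcna, the sliding clamp that the loader places, was the brightest member, with 3857 and 3586 in controls and 3290 and 3477 in mutants. Its value of -0.14 ± 0.08 did not pass (adjusted p = 0.236), except with quantile normalization, where it was -0.21 (adjusted p = 0.0328).

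The subunits of ribonucleotide reductase, which makes deoxynucleotides, were called in opposite directions on the brightest probe set of each. Rrm1, the large subunit, had 1200.3 and 1244 in controls and 774 and 842 in mutants, a fall of 0.60 ± 0.09 (adjusted p = 1.74e-03), and its second probe set, at -0.38 ± 0.13, did not pass (adjusted p = 0.0526). Rrm2, the small subunit, had 1023 and 991 in controls and 1480.1 and 1387 in mutants, a rise of 0.51 ± 0.09 (adjusted p = 3.03e-03), or 42.3% more signal. Its brightest probe set is of a kind whose probes may also match other transcripts. Of the other probe sets of Rrm2, 1 rose by 0.55 ± 0.11 (adjusted p = 6.82e-03) and 1, with -0.061 ± 0.12, did not pass. Neither of these is of that kind. The rise therefore depends on which probe set stands for the gene. Tyms, thymidylate synthase, was the dimmest member, with 42.3 and 41.0 in controls and 28.9 and 36.3 in mutants, and did not pass (-0.36 ± 0.26). The E cyclins, which drive entry into S phase, did not pass either: Ccne1 had 0.044 ± 0.14 and Ccne2 -0.30 ± 0.13 (adjusted p = 0.103). The sign of Ccne1 turned with median centring, without control 2, by the mean over its probe sets and by its probe set of unique match.

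Several probe sets of a gene are separate readings of the same RNA, not replicates. Of the 91 tested probe sets of members 44 were lower, 2 higher and 45 did not pass, against 20.5% lower and 18.9% higher of all 28434 probe sets. There were 31 members with 2 or more tested probe sets, and for 20 of them all these had the same call. Opposite calls on probe sets of 1 member occurred for 0 members. Of 19 members that fell on the brightest probe set and had another, 11 were called lower on every one. Tpx2 and Mcm3 did not pass on the brightest and fell on another.

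**Figure D2:**
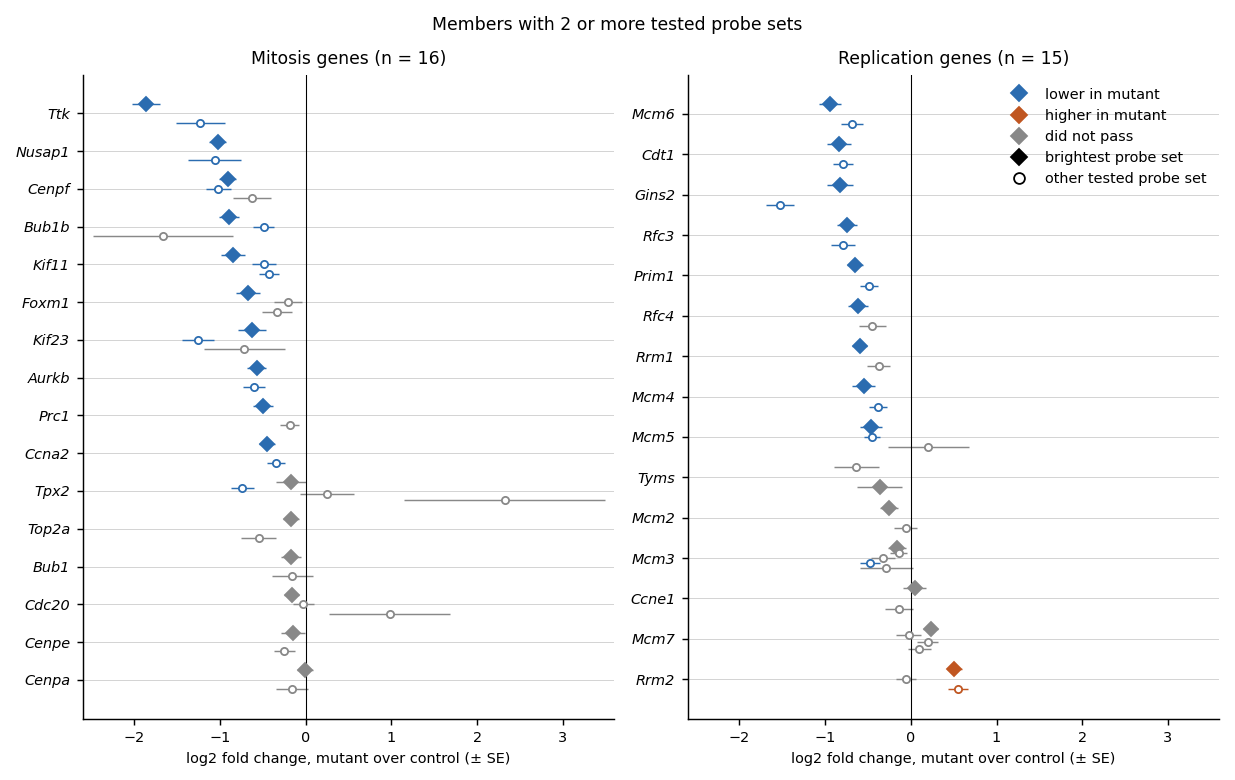
Log2 fold change (mutant over control, ± SE of the limma fit, n = 2 arrays per group) of every tested probe set of the 31 members with 2 or more, mitosis genes left and replication genes right. Filled diamonds are the brightest probe set of a gene and open circles the others, in blue where lower, orange where higher and grey where the test was not passed. Probe sets of Ttk, Nusap1, Mcm6, Cdt1 and Prim1 all lie on the side of lower signal, while those of Tpx2 and Rrm2 are spread.

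The authors' deposited table lists probe sets whose group means were 2-fold or more apart in GCRMA expression values. It lists 6296 of the 45101 probe sets on the array and 13 of the 102 that name a member alone, a similar share. These 13 belonged to 9 members and were each lower in the mutant. How many of the 6296 were lower is not given here. In the authors' deposited table the mitosis genes were Aurkb, Birc5, Cenpf, Kif23, Nusap1 and Ttk, and the replication genes Cdt1, Gins2 and Pola1. Ttk was 4.98-fold and 2.90-fold lower on its 2 probe sets, Gins2 2.86-fold and 3.46-fold lower on 2 probe sets, Pola1 2.86-fold and Nusap1 2.60-fold and 2.58-fold lower, in the authors' deposited table. Each of these 13 probe sets was also called lower in the limma fit, and 6 of the 13 were the brightest of their gene. They had been listed for a 2-fold difference on these same arrays, so the limma calls are not separate evidence. Rrm2 and Mcm7 were not among its 2-fold differences.

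Further genes of the same processes, listed by their role, fell more often than they rose. Of 43 other mitosis genes measured 18 fell, none rose and 25 did not pass, with a median log2 fold change of -0.36, where 24.5% of all genes were called lower and 20.6% higher. Sgo1, shugoshin, which guards the cohesion of sister chromatids, had a signal of 285 and 317 in controls and 102 and 120 in mutants and fell by 1.44 ± 0.14 (adjusted p = 1.82e-04). Cenpk, a kinetochore protein, fell by 1.30 ± 0.15. Racgap1, the partner of Kif23 in the central spindle, fell by 0.88 ± 0.10, and Anln, anillin of the cleavage furrow, by 0.81 ± 0.10. Of 39 other replication genes 22 fell, 2 rose and 15 did not pass, with a median of -0.40. Cdc7, the kinase that fires licensed origins, had 320 and 303 in controls and 107 and 105 in mutants and fell by 1.55 ± 0.13 (adjusted p = 6.32e-05). Tk1, thymidine kinase, fell by 1.27 ± 0.13 and Dnmt1, which copies DNA methylation at the fork, by 0.90 ± 0.09. E2f2, a transcription factor of S-phase genes, had 145 and 143 in controls and 293 and 333 in mutants, a rise of 1.12 ± 0.13 (adjusted p = 3.65e-04).

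**Figure D3:**
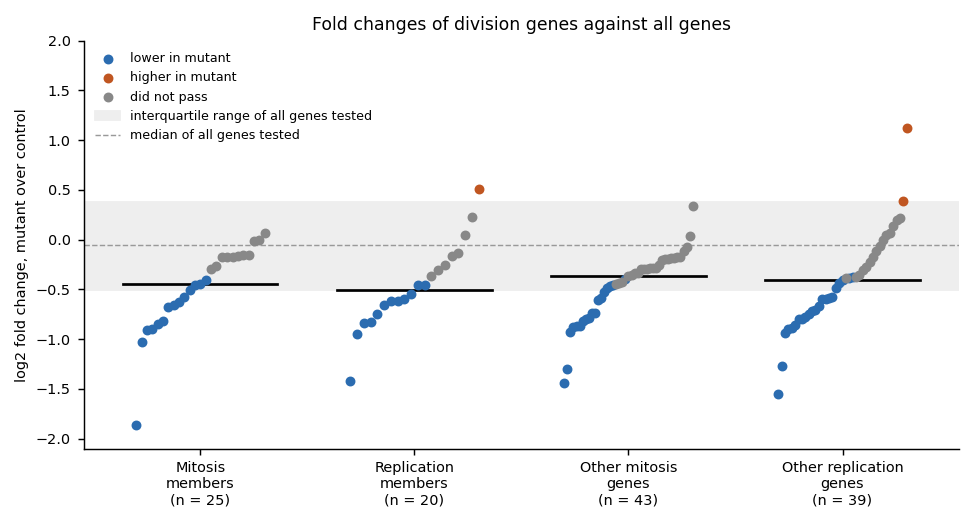
Log2 fold change (mutant over control) of the 45 members and of 82 other mitosis and replication genes, each point 1 gene and each black bar the median of its column. The grey band is the interquartile range of all 12469 genes tested, -0.50 to 0.38, and the dashed line their median of -0.056. The 4 medians lie between -0.50 and -0.36, and 1 member and 2 other genes are called higher.

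Markers of other cells and layers were measured on the same arrays. All 6 suprabasal genes (such as Krt1, Krt10 and Lor) fell, with a summed signal of 41303 to 42009.9 in controls and 6385 to 6685 in mutants. Of 7 basal genes 3 fell and 2 rose, and their sum was 23805 to 24404 in controls and 17662 to 19576 in mutants. Those that fell were Krt15 (log2 fold change -1.03), Col17a1 (-0.93) and Krt14 (-0.35), and those that rose Itga6 (0.72) and Itgb4 (0.62). Krt5 (-0.15) and Trp63 (-0.043) did not pass. All 8 melanocyte genes rose, their sum going from between 1668 and 1675 in controls to between 5189 and 6313 in mutants. Dermal fibroblast genes had 1 fall and 1 rise among 5 measured of 8, with sums of 3099.7 to 3879.8 in controls and 3555 to 3939 in mutants, most of it Dcn. Control 2 stood above control 1 for the collagen genes, with 106.7 against 1.84 for Col1a1, 376 against 118 for Col1a2 and 381 against 22.9 for Col3a1. Control 2 was also the lower control for 39 of 45 division genes, and the part of dermal cells in that difference was not tested. Endothelial and leukocyte genes were dim: 4 of 5 and 2 of 5 failed the filter, none of the rest passed the test, and Pecam1, Cdh5 and Ptprc were among those below the filter. Endothelial sums were 26.6 to 49.6 in controls and 24.5 to 30.5 in mutants, and leukocyte sums 121 to 141 and 73.7 to 98.0. The part of melanocytes, of lost suprabasal transcripts and of these other cells in the fall of the division genes was not tested.

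**Figure D4:**
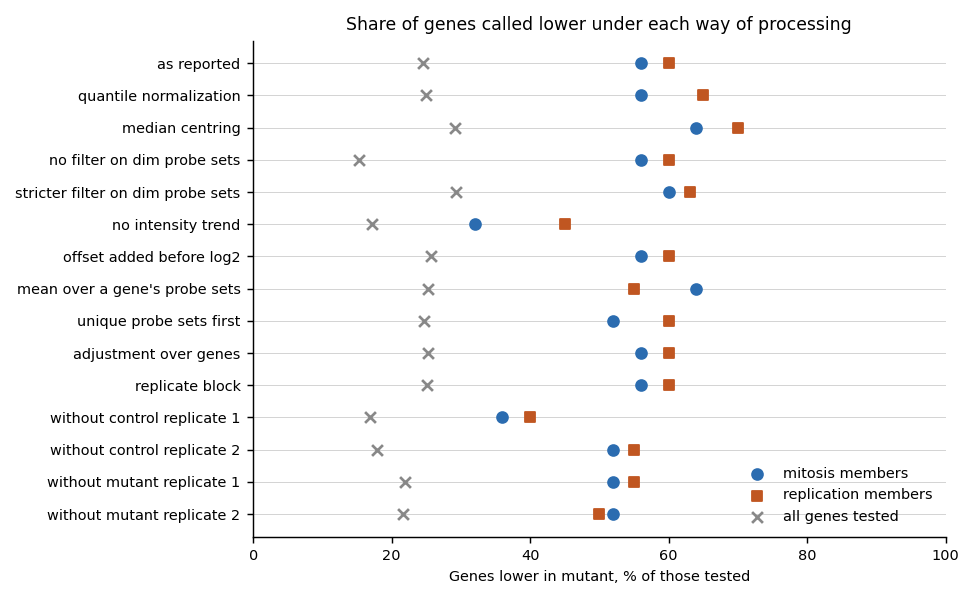
Share of the measured mitosis members (circles), replication members (squares) and all genes tested (crosses) that were called lower in mutant epidermis, as reported and under 14 other ways of processing. Member shares lie to the right of the share of all genes in every row shown, and are lowest without control 1 and without the intensity trend (8 or 9 genes in each class).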

How the data were processed

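Signal was measured on 4 Affymetrix arrays, 2 of control and 2 of mutant epidermis. The deposited intensity values are linear and, per the submitters' processing notes, were made with GCOS and MAS5; all 4 arrays share a mean of 150 once the top and bottom 2% are trimmed, and no further normalization was applied. The authors' deposited table holds ratios made from GCRMA expression, per the file headers, for probe sets Present in at least 2 of 4 samples and at least 2-fold apart. Here, 64 array controls were left out of 45101 probe sets, and the 28434 with signal above the 40th percentile of their array on at least 2 arrays were tested. Log2 signals were compared with limma 3.58.1 (R 4.3.3) (lmFit, then eBayes with trend = TRUE, the variance following intensity), mutant minus control, two-sided, and adjusted by Benjamini-Hochberg over all tested probe sets. Each gene was represented by its brightest probe set, by mean log2 signal over the arrays, and 9 members were represented by one whose identifier marks possible cross-matching. Names came from the platform annotation, updated through Entrez identifiers (99.4% matched to GRCm38.p6). With 2 arrays a group, the smallest exact permutation p is 0.333, so calls rest on the spread pooled over probe sets, and the number of arrays limits the precision. Members and lists were chosen with earlier results of these data known. Full statistics go to Mki67, Top2a, Pcna and up to 6 called genes per class by moderated t, and up to 4 per class of the further lists; other members are given more briefly. The fit was tested on simulated data, where the false share of calls averaged somewhat above the nominal rate. The limit set on that share was chosen after a first version had failed. Far fewer probe sets were changed there than were called here, and each had the spread fitted at its intensity, so the share need not carry over. Calls near the threshold should be taken as less secure than their adjusted p states. Hybridization station, scanner and day were the same for all arrays.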

Additional observations from a re-analysis of the deposited data

How the results depend on the processing

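The counts and medians were recomputed under 14 alternatives. The mitosis genes that fell, 14 as reported, were 8 without the intensity trend and 9 to 13 with 1 array left out, lowest without control 1. The replication genes that fell, 12 as reported, were 8 to 11 with 1 array left out. Replication genes that rose, 1 as reported, were 2 with quantile normalization and 0 with probe sets of unique match first. With 1 array left out the mitosis median ranged from -0.47 to -0.36 and the replication median from -0.61 to -0.37. Median centring moved the median of all genes by -0.11, and the medians of the classes with it, to -0.55 and -0.62; relative to all genes they were -0.38 and -0.45 under either scaling. Of 27 called members, 15 kept their call under every alternative. Rrm2 turned to -0.061 and Mcm7 to -0.024 with probe sets of unique match first. A fainter probe set of Rrm2, also of unique match, was higher at 0.55. Of members that did not pass, Cdc20 turned to 0.26 and Tpx2 to 0.41 by the mean over probe sets. Those means give equal weight to dim probe sets, among them 1 of Cdc20 at 0.98 ± 0.70 and 1 of Tpx2 at 2.32 ± 1.17. Ube2c turned to -0.043, Mad2l1 to -0.11 and Ccne1 to -0.067 with median centring. Ccne1 was -0.048 by the mean over probe sets and -0.14 with unique match. With 1 array left out Cenpa ranged from -0.050 to 0.030, Cenpe from -0.33 to 0.022, Tpx2 from -0.44 to 0.087, Ube2c from -0.017 to 0.15, Mad2l1 from -0.076 to 0.079 and Ccne1 from -0.11 to 0.20. The cause of these changes was not tested. Sample numbers are shared between the groups, but nothing in the labels pairs them and deviations of same-numbered arrays correlated at 0.015; with the replicate block the counts stayed at 14 and 12 genes lower.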

Other observations

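The following genes of the further lists were chosen after their values were seen, and no difference between them was tested; over all genes, 24.5% were called lower and 20.6% higher. The other subunits of replicative polymerases and of primase that were listed fell, Pold1 by 0.77, Pold2 by 0.75, Pole by 0.48, Pole2 by 0.67, Pola2 by 0.86 and Prim2 by 0.70 on the log2 scale. Of the origin recognition complex, Orc3 fell by 0.89 and Orc5 by 0.58, while Orc1, Orc2, Orc4 and Orc6 did not pass. Among E2F factors, E2f1 fell by 0.94 and E2f8 by 0.60, E2f2 rose by 1.12 and E2f7 (-0.28) did not pass. The single-strand binding subunits also differed, with Rpa1 higher by 0.39, Rpa2 lower at -0.59 and Rpa3 (-0.30) not passing.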
